A study of Mus musculus with 12 samples.

Results

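This report describes 45 mouse genes that build and run the mitotic spindle, the kinetochore and the machinery of cytokinesis, measured by RNA sequencing in bone marrow-derived macrophages (BMDMs). The genes were chosen by name, with earlier results of these data known, and they are 45 of the 48795 genes listed in the count files. All 45 were found by symbol, with 990 reads (Cenpm) to 66059 reads (Top2a) each over the 12 libraries. They comprise 9 mitotic kinesins, 9 centromere and kinetochore genes, 4 spindle checkpoint genes, 4 genes of the anaphase switch, 7 mitotic kinase and chromosomal passenger genes, 3 spindle assembly factors, 4 genes of the central spindle and cytokinesis, and 5 genes of chromosome condensation.

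The study asked how itaconate, made by the enzyme encoded by Acod1 or supplied from outside, bears on the response of macrophages to urban particulate matter. BMDMs were grown from marrow with the growth factor M-CSF, from WT mice (strain label C57BL/6, given as C57BL/6NJ in the methods) or from mice of the strain C57BL/6NJ-Acod1em1(IMPC)J/J, whose genotype label is Acod1-/-. In each genotype 2 libraries were controls, 2 were exposed to PM (NIST urban dust, 20 µg/cm2, 24 h), and 2 received 0.25 mM 4-octyl itaconate (OI), a cell-permeable ester of itaconate, 2 h before the same PM exposure. No group received OI without PM, so the OI comparison is of OI and PM against PM alone. The labels do not say whether the 2 libraries of a group came from separate mice or cultures, so p-values measure only the spread between these libraries.

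As background, a dividing cell transcribes these genes mainly in G2 phase and mitosis and keeps them low when it rests. Kinesins and assembly factors shape the spindle, kinetochores tie chromosomes to it, the checkpoint holds anaphase until every chromosome is attached, and the central spindle then guides the cleavage furrow. M-CSF is both the differentiation and the growth factor of these cultures, and macrophages grown in it can still divide. In bulk RNA, fewer dividing cells and less mitotic RNA per cell cannot be told apart.

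The libraries held 33616577 to 36817898 assigned reads (median 34480636). All 8 macrophage markers examined (such as Adgre1, Csf1r and Lyz2) were expressed, and their summed level was 14278 to 14599 normalized CPM (counts per library total, scaled by TMM) in the control libraries, 23189 to 27338 CPM with PM and 14428 to 16637 CPM with OI and PM. Lyz2 made up most of that sum, and the other markers moved in different directions. In WT control, PM, and OI and PM libraries, Adgre1 was at 1349 and 1311, 1475 and 1415, and 984 and 879.5 CPM. Mertk was at 91.6 and 81.4, 80.2 and 64.9, and 41.5 and 25.9 CPM in the same libraries, and Fcgr1 at 83.3 and 84.7, 105 and 108, and 27.8 and 28.3 CPM. These 3 markers were lowest with OI and PM in both genotypes. Cd68 was at 1392 and 1421, 1453 and 1634, and 1709 and 1859 CPM in WT, highest with OI and PM, and overlapped between the treatments in Acod1-/-. Csf1r (1253 and 1245 CPM with OI and PM in WT) and Itgam (520.2 and 526 CPM) lay above their controls and below their PM libraries in both genotypes, and Lyz2 and Cd14 with OI and PM overlapped the controls in WT. In Acod1-/- neither overlapped. Lyz2 there was at 9173 and 9084 CPM in controls and at 10161 and 10771 CPM with OI and PM. Cd14 was at 280 and 265 CPM and at 126 and 131 CPM in the same libraries. The part of these markers in the results given here was not tested. Summed markers of marrow progenitors stayed between 1.32 and 4.17 CPM, of neutrophils between 0.10 and 4.86 CPM, and of fibroblasts between 0.27 and 2.34 CPM. The neutrophil sums in WT were 2.00 and 2.02 CPM with PM and 0.10 and 0.36 CPM with OI and PM. The fibroblast sums there were 1.12 and 1.26 CPM and then 0.27 and 0.57 CPM. Both sums were also lower with OI in Acod1-/-. Cd34, of the progenitors, was at 2.03 and 1.83, 0.91 and 0.89, and 0.24 and 0.24 CPM across the 3 treatments in WT. Gata2, of the same list, was highest with OI and PM. The part of these low levels was not tested either. The marker sums of dendritic, B, T and NK, mast and erythroid cells were all under 1 CPM. Acod1 itself was at 1.84 and 2.49 CPM in WT controls, at 181 and 170.3 CPM with PM and at 32.6 and 57.1 CPM with OI and PM. In the libraries labelled Acod1-/- it was at 1.26 and 1.22, 108 and 94.1, and 24.4 and 26.8 CPM in the same order. Reads over the whole gene therefore remained in those libraries, and a whole-gene count does not check a partial deletion. The genotype names used here follow the labels.

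The summed level of the 45 genes stepped down from control to PM and then much further with OI. WT controls held 2214 and 2198 normalized CPM of these transcripts, WT libraries with PM 1512 and 1477 CPM, and WT libraries with OI and PM 294 and 289 CPM. The sums in Acod1-/- macrophages were 2045 and 2004 CPM in controls, 1406 and 1369 CPM with PM, and 265 and 264 CPM with OI and PM. The 3 treatments did not overlap in either genotype, and the 2 libraries of a group lay close together. The median member was at 39.8 and 40.0 CPM in WT controls, at 25.8 and 25.3 CPM with PM, and at 2.31 and 2.54 CPM with OI and PM. No member was under 1 CPM in any library without OI, against 7 to 12 of the 45 in the 4 OI libraries.

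**Figure D1:**
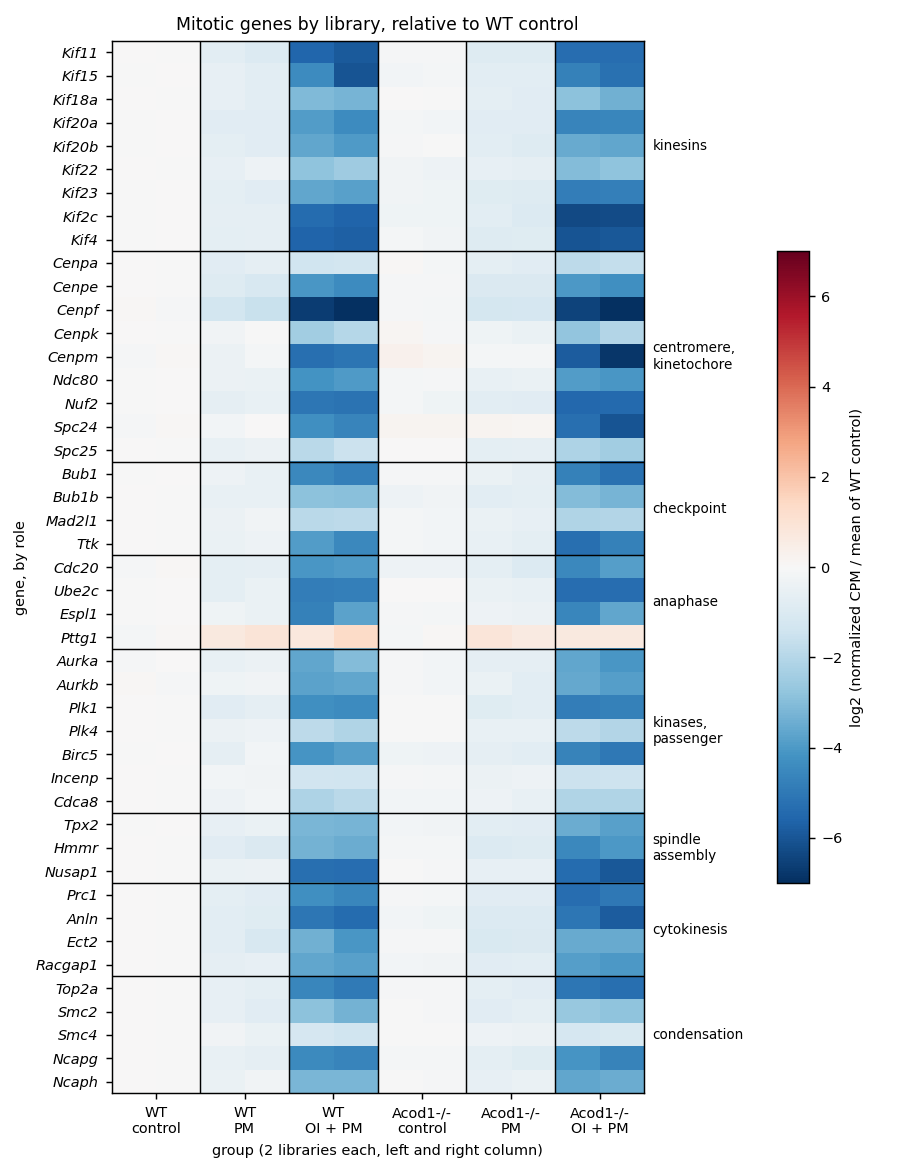
Normalized CPM of each of the 45 genes in each of the 12 libraries, as log2 of the ratio to the mean of the 2 WT control libraries, with genes in rows by role and libraries in columns by group. The OI and PM columns are the darkest in both genotypes, from 294 and 289 summed CPM in WT to 265 and 264 in Acod1-/-, while Pttg1 stands out as the 1 row that is not blue there.

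Calls were made with edgeR's quasi-likelihood test over 11228 genes, at a Benjamini-Hochberg adjusted p of 0.05 or less and a change of at least 2-fold. With OI and PM against PM alone, 42 of the 45 genes fell in WT macrophages and 43 of 45 in Acod1-/- macrophages, and none rose. Among all genes tested, 8.49% were called lower in WT and 7.98% in Acod1-/- macrophages. The median log2 fold change of the members was -3.35 in WT and -3.33 in Acod1-/-, beside 0.02 and -0.00 over all genes tested. All 45 members passed the filter on low values (over 1.5 CPM in at least 2 libraries), and each was above that level in all 8 libraries without OI. All 12 libraries were above it for 24 members and 2 or 3 of the 4 OI libraries for 7 more, while the other 14 passed only through the libraries without OI. With no filter beyond 1 read, the calls were 42 of 45 in WT and 42 of 45 in Acod1-/- macrophages. The values are given by role in what follows.

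The exons of 13 members overlap exons of other genes, so the reads there may be shared or dropped, depending on the strand setting of the counting. The 32 members without such an overlap gave 29 calls in WT and 30 in Acod1-/- macrophages, with medians of -3.08 and -3.19.

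**Figure D2:**
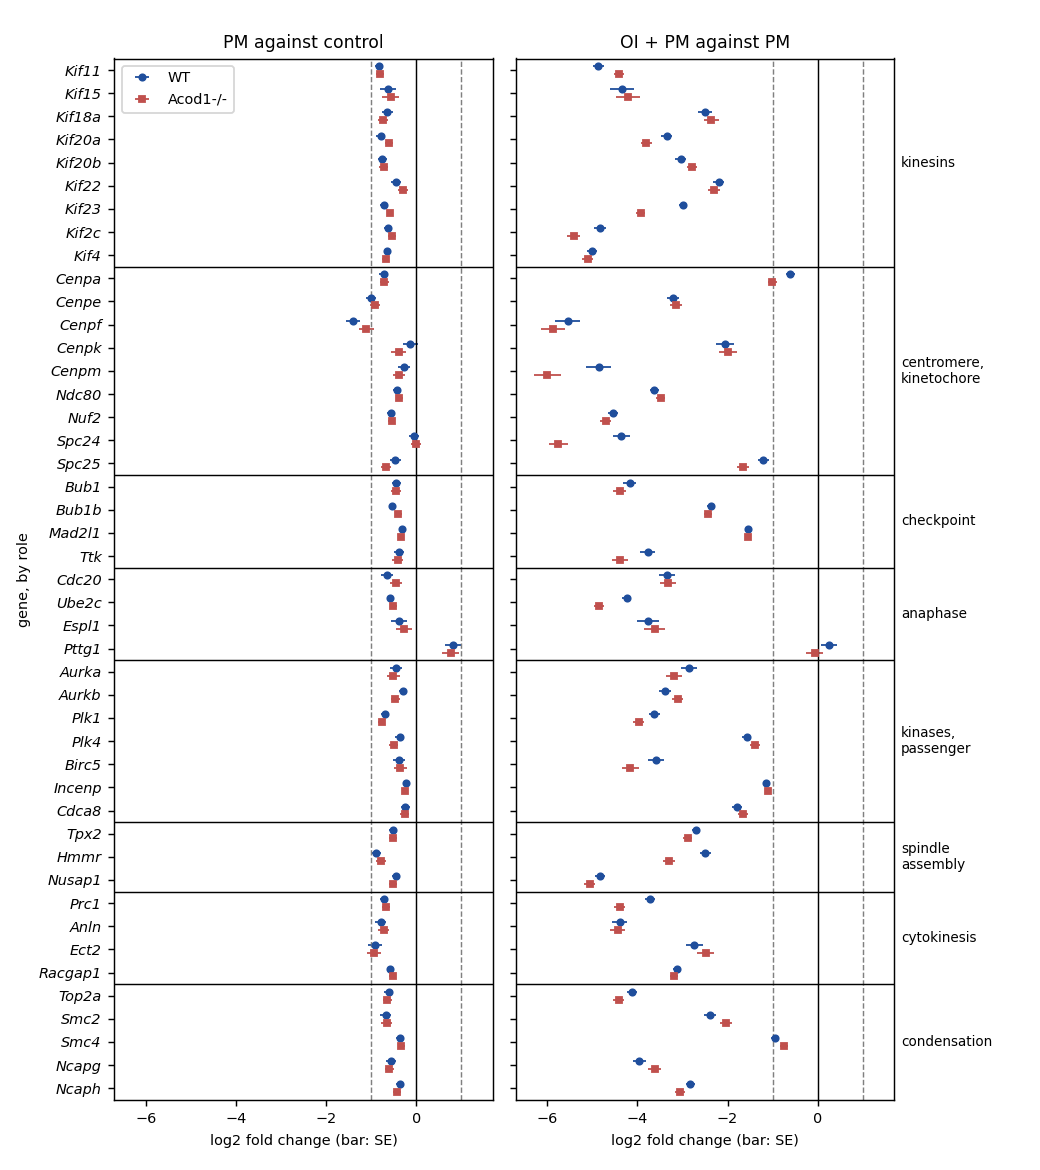
Log2 fold change of each member with its SE, for PM against control (left) and OI and PM against PM (right), in WT (circles) and Acod1-/- (squares) macrophages, with dashed lines at a 2-fold change. The left panel clusters between 0 and -1 with Cenpf at -1.41 and -1.11 and Pttg1 at 0.82 and 0.76, and the right panel spreads from -6.00 (Cenpm, Acod1-/-) to 0.25 (Pttg1, WT).

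Promoters of mitotic genes often carry a cell cycle genes homology region (CHR) element near the start site and CCAAT boxes upstream of it. The CHR is bound by the DREAM complex in resting cells and by B-Myb and FoxM1 with MuvB in dividing cells, and NF-Y binds the CCAAT box. The RefSeq windows of the GRCm38.p6 build, from 250 bases before to 50 bases after a gene's start, were searched because nearly all members moved together. Windows were available for 39 of the 45 genes. Of the 4 shown here, Cenpf had the largest fall with OI in WT, Plk1 and Top2a are a kinase and a chromosome gene of the module, and Pttg1 is the member that did not fall. Capitals mark CHR letters (TTTGAA, or TTCAAA on the other strand) and CCAAT letters (CCAAT, or ATTGG on the other strand), and each sequence runs 5′ to 3′ along the gene's own strand.
Cenpf (chr1:189688037-189688336, minus strand): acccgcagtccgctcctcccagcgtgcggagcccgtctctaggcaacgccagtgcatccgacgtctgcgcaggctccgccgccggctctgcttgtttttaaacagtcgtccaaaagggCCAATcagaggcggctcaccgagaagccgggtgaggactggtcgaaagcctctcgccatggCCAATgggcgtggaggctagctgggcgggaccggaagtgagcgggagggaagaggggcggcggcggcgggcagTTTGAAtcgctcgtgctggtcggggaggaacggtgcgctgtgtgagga
Plk1 (chr7:122159185-122159484, plus strand): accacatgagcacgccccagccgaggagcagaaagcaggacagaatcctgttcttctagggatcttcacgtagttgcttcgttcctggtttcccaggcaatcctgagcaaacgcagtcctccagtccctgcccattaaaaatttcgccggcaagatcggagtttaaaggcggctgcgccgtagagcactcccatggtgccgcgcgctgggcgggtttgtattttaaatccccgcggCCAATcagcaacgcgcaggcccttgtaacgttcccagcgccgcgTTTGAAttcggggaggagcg
Top2a (chr11:99024140-99024439, minus strand): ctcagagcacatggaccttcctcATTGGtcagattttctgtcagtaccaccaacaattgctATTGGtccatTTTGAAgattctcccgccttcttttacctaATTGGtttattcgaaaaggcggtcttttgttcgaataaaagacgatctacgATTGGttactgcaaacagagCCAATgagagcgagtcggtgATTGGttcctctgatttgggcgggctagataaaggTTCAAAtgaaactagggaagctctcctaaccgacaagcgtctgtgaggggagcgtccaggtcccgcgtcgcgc
Pttg1 (chr11:43425932-43426231, minus strand): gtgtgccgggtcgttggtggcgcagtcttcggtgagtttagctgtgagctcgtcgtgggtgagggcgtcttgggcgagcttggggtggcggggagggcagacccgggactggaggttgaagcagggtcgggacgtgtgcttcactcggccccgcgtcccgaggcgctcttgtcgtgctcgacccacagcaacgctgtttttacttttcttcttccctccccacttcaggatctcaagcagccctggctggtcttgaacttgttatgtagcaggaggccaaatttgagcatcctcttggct
The Cenpf window held 1 CHR and 2 CCAAT matches, the Plk1 window 1 and 1, and the Top2a window 2 and 6. No match of either kind was in the Pttg1 window, which says only that these letters are not within it.

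Over the members, 27 of 39 (69.2%) held the CHR letters TTTGAA on either strand, against 20.2% of the 27025 genes in the table and 14.4% of the 8837 tested genes in it. The match lay within 50 bases of the start in 26 of the 39 (66.7%), against 5.72% of all genes in the table and 3.94% of the tested genes. CCAAT letters were in 26 of 39 members (66.7%), against 41.1% of all genes and 43.3% of the tested genes. TATAAA letters were in 2 of 39 (5.13%), against 15.7% of all genes and 8.41% of the tested genes. Both CHR and CCAAT letters were held by 22 members, and neither by 8, namely Nuf2, Kif18a, Nusap1, Ncaph, Plk4, Mad2l1, Pttg1 and Birc5. These 8 spanned nearly the whole range of responses to OI, from a log2 fold change of -4.83 (Nusap1) to 0.25 (Pttg1) in WT macrophages. Members with the CHR letters had a median log2 fold change with OI of -3.62 in WT and those without had -3.02, while for the CCAAT letters the medians were -3.28 with and -3.58 without. In Acod1-/- the medians were -3.62 with and -3.10 without the CHR letters, and -3.47 with and -3.49 without the CCAAT letters. Matches of letters are a description of the windows and not evidence of binding.

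**Figure D3:**
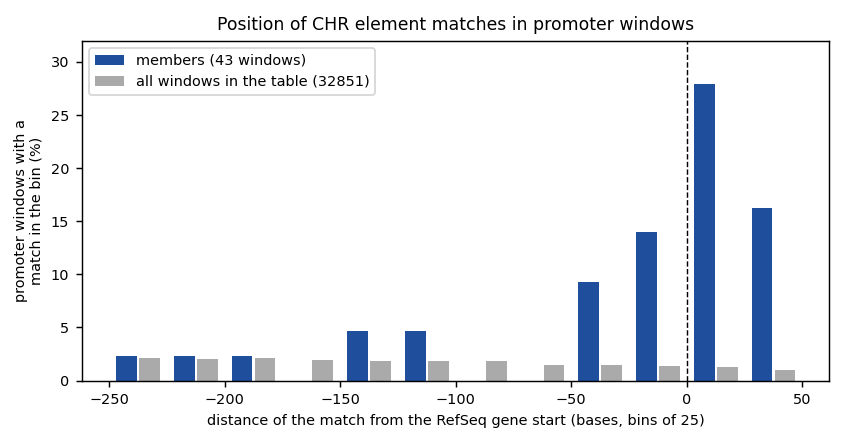
Share of promoter windows with a CHR match in each bin of 25 bases, by distance from the RefSeq gene start, for the 43 windows of members and for all 32851 windows of the table. Members peak at 27.9% of windows in the 25 bases after the start, where 1.31% of all windows have a match.

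The mitotic kinesins fell together with OI in both genotypes, 9 of 9 called in each. Kif20a, which carries the chromosomal passenger complex to the central spindle, had the highest level per length of the kinesins in WT controls (12.5 CPM per kb of exon). It was at 54.1 and 54.7 CPM in WT controls, at 31.9 and 30.9 CPM with PM and at 3.56 and 2.54 CPM with OI and PM. The Acod1-/- libraries had 48.8 and 47.3, 31.1 and 31.7, and 2.22 and 2.28 CPM of Kif20a. Its log2 fold change with OI was -3.35 (SE 0.12, adjusted p = 1.5e-08) in WT and -3.80 (SE 0.12) in Acod1-/-. Kif4, a chromokinesin that also sets the length of the central spindle, fell most of the kinesins in WT. Its WT levels were 27.3 and 28.9 CPM in controls, 17.8 and 18.1 CPM with PM, and 0.57 and 0.54 CPM with OI and PM. In Acod1-/- macrophages Kif4 stood at 25.1 and 23.7, 14.9 and 15.6, and 0.42 and 0.46 CPM. No OI library came near a PM library, and Kif4 with OI was 32.4-fold lower than with PM in WT and 34.6-fold lower in Acod1-/-. Kif22, a chromokinesin that pushes chromosome arms toward the equator, fell least, from 19.9 and 23.1 CPM with PM to 4.22 and 5.18 CPM with OI and PM in WT. Its controls were at 30.0 and 28.5 CPM in WT and 25.1 and 22.6 CPM in Acod1-/-, and the Acod1-/- treated libraries were at 19.7 and 19.1 and at 3.64 and 4.22 CPM. Kif11, the motor that slides the spindle poles apart, and Kif2c, which takes microtubule ends apart, fell by 4.87 and 4.82 on the log2 scale in WT. Kif15, a motor that can share the work of Kif11, was at 4.80% of its PM level with OI in WT, and Kif18a, which damps chromosome movements, at 17.5%. Kif20b and Kif23, both of the late spindle, were at 12.1% and 12.6%.

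Of the 9 centromere and kinetochore genes, 8 fell with OI in WT and 9 in Acod1-/- macrophages. Spc25, an inner subunit of the Ndc80 complex, which grips the microtubule, had the highest level per length (10.8 CPM per kb in WT controls). It was at 34.9 and 34.2, 24.1 and 26.0, and 9.37 and 12.3 CPM in WT control, PM, and OI and PM libraries. In Acod1-/- its levels were 35.0 and 35.6, 21.8 and 22.5, and 7.64 and 6.41 CPM. Spc25 thus kept 43.4% of its PM level in WT and 31.8% in Acod1-/-, one of the smaller falls. Cenpf, a large coiled-coil protein of the outer kinetochore, had the largest fall with OI of all members in WT. Its WT values were 50.1 and 45.9 CPM in controls, 19.9 and 16.1 CPM with PM, and 0.48 and 0.27 CPM with OI and PM. Acod1-/- macrophages held 45.5 and 44.0, 20.4 and 21.2, and 0.54 and 0.15 CPM of Cenpf. The OI libraries held 5 to 18 Cenpf reads each, and Cenpf changed by -5.55 on the log2 scale (SE 0.27, adjusted p = 1.3e-07) in WT and -5.88 (SE 0.27) in Acod1-/-.

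Cenpa, the histone H3 variant that marks the centromere, fell least of the kinetochore genes. Its levels in WT were 46.4 and 45.9, 26.3 and 29.5, and 17.9 and 18.7 CPM in control, PM, and OI and PM libraries. The Acod1-/- levels were 48.4 and 42.6, 28.8 and 26.8, and 12.8 and 14.8 CPM. All OI libraries were below all PM libraries, but the log2 fold change of -0.61 (SE 0.10, adjusted p = 0.00077) in WT was under the 2-fold limit, and that of -1.01 (SE 0.10) in Acod1-/- just past it. The difference between the genotypes was -0.40 with an adjusted p of 0.72 for the interaction in edgeR's quasi-likelihood test. The Acod1-/- call was also lost without PM replicate 1 (-0.96), without OI and PM replicate 1 (-0.91), with a filter of 10 counts (-0.99), with no filter beyond 1 read (-0.99) and in a test against the 2-fold limit itself. Cenpm, a subunit of the centromere-bound network, was the lowest member, with 3 and 3 reads in the WT OI libraries and 2 and 1 in those of Acod1-/-. Against the pooled PM libraries its level with OI was 3.32% in WT (exact 95% counting interval 1.20% to 7.36%) and 1.45% in Acod1-/- (0.30% to 4.29%). Cenpk, of the same network, kept 24.1% of its PM level in WT, and Cenpe, the motor that carries chromosomes to the equator, 10.8%.

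All 4 spindle checkpoint genes fell with OI in both genotypes. Bub1b, which encodes the APC/C inhibitor BubR1, was the highest per length (13.2 CPM per kb in WT controls). Its WT libraries held 57.2 and 55.8, 38.8 and 38.9, and 7.58 and 7.44 CPM in control, PM, and OI and PM, and its Acod1-/- libraries 44.8 and 47.0, 34.2 and 35.2, and 6.91 and 5.91 CPM. Bub1, a kinase at the kinetochore, fell most in WT, from 44.3 and 46.6 CPM in controls and 35.5 and 31.1 CPM with PM to 2.01 and 1.66 CPM with OI and PM. The Acod1-/- values of Bub1 were 42.8 and 42.4, 32.5 and 29.6, and 1.71 and 1.23 CPM. Mad2l1, the Mad2 protein that binds Cdc20, fell least, from 48.6 and 53.2 CPM with PM to 17.1 and 17.7 CPM with OI and PM in WT and from 45.8 and 43.1 to 14.8 and 15.5 CPM in Acod1-/-. Its controls were at 63.9 and 63.5 CPM in WT and at 57.2 and 55.2 CPM in Acod1-/-. Ttk, the kinase that starts the checkpoint signal, was at 7.20% of its PM level in WT and 4.75% in Acod1-/-. The falls of the 4 genes in WT thus ranged from 2.93-fold (Mad2l1) to 18.2-fold (Bub1).

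Among the 4 genes of the anaphase switch, 3 fell and Pttg1 did not. Ube2c, the E2 enzyme that feeds ubiquitin to the APC/C, was the highest per length (13.7 CPM per kb) and also fell most with OI in WT. It was at 35.5 and 35.7 CPM in WT controls, at 22.3 and 25.3 CPM with PM and at 1.23 and 1.29 CPM with OI and PM. In Acod1-/- it was at 36.9 and 36.2, 25.8 and 25.3, and 0.87 and 0.89 CPM. Cdc20, the activator of the APC/C, was 10.2-fold lower with OI in WT, and Espl1, the protease separase that opens cohesin, 13.4-fold lower. Pttg1 encodes securin, the inhibitor of separase. Its WT libraries held 12 and 14.1 CPM in controls, 21.3 and 24.8 CPM with PM, and 21.4 and 33.6 CPM with OI and PM. Its Acod1-/- libraries held 11.9 and 13.6, 23.1 and 20.1, and 20.6 and 20.6 CPM. All 8 treated libraries were above all 4 controls, while the PM and the OI and PM libraries overlapped in both genotypes. The log2 fold change with OI was 0.25 (SE 0.18, adjusted p = 0.30) in WT and -0.06 (SE 0.19, adjusted p = 0.83) in Acod1-/-, by edgeR's quasi-likelihood test. Against controls, OI and PM raised Pttg1 in WT by 1.07 on the log2 scale (SE 0.19, adjusted p = 0.00083), a value that lay between 0.71 and 1.36 as each library was left out. That call was lost without WT control replicate 1 (0.96), without WT OI and PM replicate 2 (0.71), with total count scaling (0.84), with the length correction (0.74) and in a test against the 2-fold limit itself.

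All 7 genes of the mitotic kinases and the chromosomal passenger complex fell with OI in both genotypes. Incenp, the scaffold of the passenger complex, was both the highest per length (21.0 CPM per kb in WT controls) and the least changed of the 7. It was at 91.2 and 90.3, 78.9 and 76.0, and 36.0 and 34.3 CPM in WT control, PM, and OI and PM libraries, and at 85.0 and 81.2, 69.3 and 69.9, and 31.7 and 33.0 CPM in Acod1-/-. Plk1, a kinase active from mitotic entry to cytokinesis, fell most in WT. Its WT libraries held 21.9 and 20.9, 12.4 and 14.0, and 1.11 and 1.01 CPM, and its Acod1-/- libraries 21.0 and 20.9, 11.8 and 12.7, and 0.75 and 0.80 CPM. The log2 fold change of Plk1 with OI was -3.62 (SE 0.12, adjusted p = 1.3e-08) in WT and -3.97 (SE 0.13) in Acod1-/-. Plk4, the kinase that starts centriole duplication, kept 33.5% of its PM level in WT, while Aurka, the spindle pole kinase, kept 13.9%. Aurkb, the kinase of the passenger complex, kept 9.52%, its partner Birc5 (survivin) 8.36%, and its partner Cdca8 (borealin) 28.8%.

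All 3 spindle assembly factors and all 4 cytokinesis genes fell with OI in both genotypes. Tpx2, which activates Aurka and seeds microtubules, led its group per length with 16.6 CPM per kb, at 77.0 and 78.5, 52.2 and 55.9, and 8.33 and 8.25 CPM in WT control, PM, and OI and PM libraries. The same libraries of Acod1-/- held 67.4 and 64.9, 47.3 and 45, and 6.88 and 5.61 CPM. Nusap1, which bundles spindle microtubules, fell most, from 51.8 and 51.7 CPM in WT controls and 36.9 and 38.3 CPM with PM to 1.35 and 1.29 CPM with OI and PM. Its Acod1-/- values were 50.3 and 48.4, 35.0 and 34.2, and 1.23 and 0.83 CPM. Hmmr, a spindle pole protein, fell least in WT, where it was at 47.2 and 45.9, 26.5 and 23.5, and 4.70 and 4.16 CPM. In Acod1-/- it was at 41.7 and 42.5, 24.4 and 24.6, and 2.04 and 2.93 CPM. Prc1, which crosslinks the antiparallel microtubules of the central spindle, was highest per length of the cytokinesis genes at 9.89 CPM per kb. Its levels were 81.8 and 80.9, 51.5 and 47.8, and 4.13 and 3.38 CPM in WT and 76.4 and 75.0, 47.5 and 47.7, and 1.98 and 2.53 CPM in Acod1-/-. Anln, the actin-binding anillin of the cleavage furrow, fell most, from 68.2 and 68.0 CPM in WT controls and 40.7 and 38.0 CPM with PM to 2.07 and 1.66 CPM with OI and PM. The Acod1-/- values of Anln were 60.8 and 56.1, 35.2 and 35.6, and 2.04 and 1.20 CPM. Ect2, the exchange factor that activates RhoA at the furrow, fell least, from 20.9 and 16.1 CPM with PM to 3.41 and 2.06 CPM in WT and from 16.6 and 17.6 to 3.04 and 3.05 CPM in Acod1-/-. Its controls were at 36.2 and 34.1 CPM and at 32.6 and 33.2 CPM. Racgap1, the partner of Kif23 in centralspindlin, was at 11.5% of its PM level with OI in WT and 11% in Acod1-/-.

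Of the 5 condensation genes, 4 fell with OI in each genotype. Top2a, the topoisomerase that untangles sister chromatids, was the most abundant member on either scale, at 30.9 CPM per kb in WT controls. Its WT libraries held 279 and 278 CPM in controls, 189 and 176 CPM with PM, and 11.8 and 9.13 CPM with OI and PM, and its Acod1-/- libraries 266 and 262, 175 and 163, and 8.48 and 7.30 CPM. With OI the mean of Top2a in WT was 10.5 CPM (SD 1.86, n = 2), a log2 fold change against PM of -4.12 (SE 0.12, adjusted p = 5.2e-09). Smc4, an ATPase shared by both condensin complexes, changed least. It was at 151 and 143, 122 and 106, and 63.9 and 55.3 CPM in WT and at 142 and 144, 115 and 112, and 66.3 and 69.6 CPM in Acod1-/-. Every OI library was below every PM library, and the log2 fold changes of -0.94 (SE 0.09) in WT and -0.74 (SE 0.09) in Acod1-/- passed the adjusted p but not the 2-fold limit. In WT Smc4 passed both with total count scaling (-1.07), without PM replicate 2 (-1.04) or without OI and PM replicate 1 (-1.05). Its partner Smc2 kept 19.0% of its PM level with OI in WT, and the condensin I subunits Ncapg and Ncaph kept 6.42% and 14.1%.

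Subunits that work in 1 complex did not fall alike. For each subunit, its log2 CPM, not scaled by exon length, was set against the mean of its partners among the 45 members. This was done in the 4 PM and the 4 OI and PM libraries of both genotypes. It is a description added after the values were seen and without a test. In the Ndc80 complex, Spc25 lay 0.47 to 0.70 above its partners with PM and 3.33 to 3.78 above them with OI and PM. Spc24, its direct partner, lay between -1.61 and -1.13 with PM and between -3.55 and -2.41 with OI and PM. Ndc80 kept its place, at 0.46 to 0.61 with PM and 0.14 to 0.98 with OI and PM. In the chromosomal passenger complex, Incenp lay 1.27 to 1.60 above its partners with PM and 3.03 to 3.47 above them with OI and PM. Birc5 lay between -0.60 and -0.20 with PM and between -2.77 and -1.75 with OI and PM. Among the condensin subunits, Smc4 lay 1.52 to 1.73 above its partners with PM and 3.68 to 3.97 above them with OI and PM, while Ncapg lay between -1.37 and -1.10 and then between -3.18 and -2.65. The shifts were largest for Spc25, Spc24, Incenp, Birc5, Smc4 and Ncapg, at 1.63 or more in size. For these subunits the PM and OI libraries did not overlap, and the SD within either treatment was 0.48 or less. No share over other sets of genes was computed, so how common such shifts are was not tested. The shifts within a complex offset one another by construction, because each subunit is part of its partners' mean. They are therefore not separate observations. The libraries did not overlap for Nuf2, Aurkb, Cdca8 and Ncaph either, with smaller shifts, and they overlapped for Ndc80, Smc2 and Kif23.

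**Figure D4:**
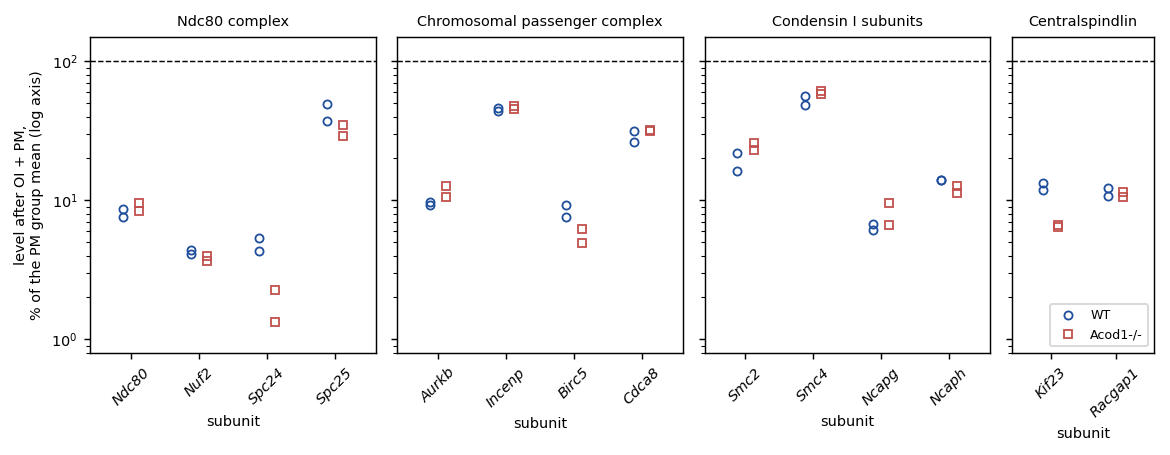
Level of each subunit in the 2 OI and PM libraries of WT (circles) and Acod1-/- (squares), as percent of the mean of the PM libraries of the same genotype, on a log axis with a dashed line at the PM level. As group means, Spc25, Incenp, Cdca8 and Smc4 keep 28.8% (Cdca8, WT) to 59.8% (Smc4, Acod1-/-), and Nuf2, Spc24, Birc5 and Ncapg are at 8.36% (Birc5, WT) or less.

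PM alone changed these genes far less than OI did. In WT macrophages PM lowered 2 of 45 past the 2-fold limit, Cenpf and Cenpe, and in Acod1-/- macrophages 1 of 45, Cenpf, beside 1.13% and 1.31% of all genes called lower. By adjusted p alone, 37 members were lower and 1 higher in WT, and 36 lower and 1 higher in Acod1-/-. Of all genes, 12.2% and 11.9% were lower and 12.6% and 12% higher in WT and Acod1-/-. Under total count scaling, 2027 and 1841 of the 11228 genes were lower and 1088 and 1085 higher. The median log2 fold change of the members was -0.57 in WT and -0.52 in Acod1-/-, beside 0.01 and -0.00 over all genes. Cenpf had a log2 fold change with PM of -1.41 (SE 0.16, adjusted p = 0.00015) in WT and -1.11 (SE 0.16, adjusted p = 0.00063) in Acod1-/-. Cenpe was at 68.7 and 66.1 CPM in WT controls and 36.5 and 30.5 CPM with PM, and at 63.2 and 62.8 and 33.3 and 33.7 CPM in Acod1-/-. With OI and PM it was at 4.01 and 3.21 CPM in WT and at 4.21 and 3.39 CPM in Acod1-/-. The change of Cenpe with PM was -1.01 (SE 0.11) in WT and -0.91 (SE 0.11) in Acod1-/-, and the WT call was lost without control replicate 1 (-0.98) or without PM replicate 2 (-0.89). The 1 member that was higher, Pttg1, changed by 0.82 in WT (SE 0.19, adjusted p = 0.012) and by 0.76 in Acod1-/- (SE 0.19, adjusted p = 0.017). Spc24 changed by -0.06 with PM in WT (adjusted p = 0.71), at 7.75 and 8.65 CPM in controls and 7.26 and 8.50 CPM with PM, while with OI and PM it was at 0.42 and 0.34 CPM.

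The 2 WT PM libraries differed from each other along gene length (Spearman rho of -0.60 across 11214 genes between the replicate difference and exonic length, genes not being independent replicates). The same rho was -0.61 between the WT OI and PM libraries, 0.36 between the Acod1-/- PM libraries and between -0.29 and 0.08 in the other groups. Cenpf, with 15433 bp of exon, is the longest member, and Cenpe has 8620 bp, against a median of 5231 bp for members and 4478 bp for genes tested. With a correction for length the change of Cenpf with PM was -1.09 in WT and -0.82 in Acod1-/-, that of Cenpe in WT was -0.85, and the median of the members in WT was -0.50.

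The step from control to OI with PM holds both changes. In WT all 45 members passed, 44 lower and Pttg1 higher, beside 10.7% of genes called lower and 5.38% called higher, with a median log2 fold change of -3.98. The count was 44 under the settings, given above, in which the Pttg1 call was lost. In Acod1-/- 44 were lower, beside 9.25% of all genes, with a median of -3.89, and Pttg1 changed by 0.69 (SE 0.19, adjusted p = 0.013). These comparisons share their control libraries and their OI and PM libraries with those above, so their values are set side by side and not counted as separate evidence.

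Few members were called between the genotypes. Between Acod1-/- and WT macrophages edgeR called 0 of 45 members in controls and 0 of 45 with PM, where 0.481% and 0.561% of all genes were called in either direction. At an unadjusted p under 0.05 there were 11 and 7 members, beside 10.2% and 14.0% of all genes, and DESeq2 called 0 in both. The medians were -0.11 in controls and -0.12 with PM, with 39 and 38 of the 45 below 0, as were 46.7% and 50% of all genes. With OI and PM the median was -0.25, beside -0.03 over all genes, with 33 of the 45 below 0, as were 54.7% of all genes, and 19 members at an unadjusted p under 0.05, beside 29.2% of all genes. There 1 of 45 was called, beside 0.588% of all genes called lower, and this was Kif23, the motor of centralspindlin. Kif23 was at 53.7 and 56.1, 34.2 and 32, and 4.40 and 3.96 CPM in WT control, PM, and OI and PM libraries. The Acod1-/- libraries held 45.8 and 44.3, 30.9 and 29.0, and 1.92 and 2.00 CPM. The genotypes did not overlap under any of the 3 treatments, and the log2 difference with OI and PM was -1.09 (SE 0.11, adjusted p = 0.00092). The call was lost, leaving 0 members called, in a test against the 2-fold limit itself and when the 2 groups compared were fitted alone (-1.07). By adjusted p alone 6 members were lower in Acod1-/- with OI and PM, which besides Kif23 were Prc1 (-0.74), Hmmr (-0.84), Spc25 (-0.63), Tpx2 (-0.41) and Cenpa (-0.41), beside 4.45% of all genes. More members were called without WT OI and PM replicate 1 or without Acod1-/- OI and PM replicate 2. Those fits leave 1 library in a group, and the number of all genes called rose in the first and fell in the second. The medians of the members were then -0.22 and -0.305.

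The effects of PM and of OI were also compared between the genotypes directly. By edgeR 0 of 45 members passed for either interaction, as did 0% of all genes. At an unadjusted p under 0.05 there were 0 members for PM and 9 for OI, beside 2.43% and 6.39% of all genes, and DESeq2 called 0 for both. The smallest adjusted p was that of Kif23 for OI, 0.082, with a difference of -0.95 on the log2 scale (SE 0.13), its fall with OI being 7.92-fold in WT and 15.3-fold in Acod1-/-.

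Other genes of the pathway were described from lists written with earlier results of these data known, and their counts of falls with OI stand beside 8.49% of all genes called lower in WT and 7.98% in Acod1-/-. Of 60 further mitotic genes, 46 fell with OI in WT and 47 in Acod1-/- (medians -2.91 and -2.86), for example Ncapd2, the remaining condensin I subunit (log2 fold change -3.41 in WT), and Kntc1, a checkpoint protein of the kinetochore (-4.71). All 7 mitotic cyclin, Cdk1 and Cdc25 genes tested fell, among them Ccna2 (-5.25) and Ccnb1 (-4.33) in WT. Of 25 DNA replication genes 20 fell in each genotype, with medians of -2.19 and -1.98. With PM alone edgeR and DESeq2 called 0 of those 25 in either genotype, with 6 (WT) and 10 (Acod1-/-) at an unadjusted p under 0.05, beside 40.8% and 37.1% of all genes. By adjusted p alone 3 and 7 of the 25 were lower, beside 12.2% and 11.9% of all genes, in WT a share near that of all genes. Their medians with PM were 0.03 and -0.19. Of 15 core subunits of the APC/C, 1 fell with OI in WT, a share near that of all genes, and 0 in Acod1-/- by edgeR or DESeq2 (3 at an unadjusted p under 0.05, beside 43.4% of all genes), with medians of 0.03 and -0.12. The 1 in WT was Anapc15, which fell by 1 on the log2 scale, and its call was lost with RLE scaling, the filter of 10 counts, the length correction with replicate block, a test against the 2-fold limit itself, without PM replicate 2 (-0.89) and without OI and PM replicate 1 (-0.94). By adjusted p alone 3 of the 15 were lower and 2 higher in WT and 3 lower in Acod1-/-, where 22.6% of all genes were lower and 21.3% higher in WT, and 20.6% lower and 13.9% higher in Acod1-/-. Of 9 cohesin genes, which hold sister chromatids together, edgeR and DESeq2 called 0 in either genotype, with 5 (WT) and 4 (Acod1-/-) at an unadjusted p under 0.05, beside 52.1% and 43.4% of all genes. By adjusted p alone 4 of the 9 were lower in WT, and 3 were lower and 1 higher in Acod1-/-. Smc1a was at -0.46 in WT, and Stag2, the 1 that was higher, at 0.27 (adjusted p = 0.081) in WT and 0.43 (adjusted p = 0.015) in Acod1-/-. The share with CHR letters within 50 bases of the start was 18 of 51 for the further mitotic genes, 2 of 19 for the replication genes, 3 of 5 for the cyclin, Cdk1 and Cdc25 genes, 1 of 6 for the cohesin genes and 0 of 14 for the APC/C subunits with a window.

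Among 13 regulators of mitotic transcription, 5 fell with OI in WT and 4 in Acod1-/-, beside 8.49% and 7.98% of all genes. Foxm1, an activator of G2 and M phase genes, was at 34.9 and 34.4, 23.4 and 21.8, and 1.77 and 1.42 CPM in WT control, PM, and OI and PM libraries. Mybl2, which encodes B-Myb, was at 7.86 and 7.97, 7.74 and 7.70, and 0.69 and 0.58 CPM. With OI, Foxm1 fell by 3.82 and Mybl2 fell by 3.60 on the log2 scale in WT. The other calls in WT were E2f7 and E2f8, which encode repressors of E2F target genes, and Rbl1, the gene of the pocket protein p107. E2f7 was at 12.3 and 11.71, 7.43 and 6.89, and 0.090 and 0.068 CPM in WT control, PM, and OI and PM libraries. With 3 and 2 reads in the WT OI libraries, its level was 1.11% of that with PM (exact 95% counting interval 0.36% to 2.61%). E2f8 fell by 4.00 and Rbl1 fell by 1.22 on the log2 scale in WT. In Acod1-/- Rbl1 changed by -0.81, short of the 2-fold limit, and the other 4 were called. Of those 4, Foxm1 changed by -4.04 and Mybl2 by -4.78, to 0.27 and 0.15 CPM of Mybl2. Mybl2 was the 1 regulator called between the genotypes with OI and PM, beside 0.588% of all genes called lower. The difference was -1.56 (SE 0.31, adjusted p = 0.019 by edgeR's quasi-likelihood test). Mybl2 was under 1 CPM in every library of this comparison. When the 2 groups compared were fitted alone, 0 of all genes were called lower, so the call was lost. The interaction of Mybl2 for OI was -1.18 (SE 0.33, adjusted p = 0.58 by the same test) and was not called. The MuvB subunit gene Lin9 changed by -0.97 with OI in WT (adjusted p = 2.6e-05), also short of the 2-fold limit. The values of the other MuvB genes of the list, named after they were seen, were 0.36 for Lin37 (adjusted p = 0.070), 0.06 for Lin52 (0.71) and -0.11 for Lin54 (0.42) in WT. The rest of the list, by the same edgeR test in WT, was E2f1 at -0.62 (adjusted p = 0.00022), Trp53 at -0.25 (0.014), Rbl2 at -0.10 (0.56) and Cdkn1a at 0.44 (0.0012). In Acod1-/- Cdkn1a changed by 0.12 with OI (adjusted p = 0.29). Between the genotypes with OI and PM it differed by -0.50 (adjusted p = 0.0073), short of the 2-fold limit.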

How the data were processed

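RNA of 12 BMDM libraries was sequenced as single-end reads. Per the labels and methods, the authors aligned reads to GRCm38 with STAR 2.5.3a, checked them with FastQC 0.11.5 and Picard 2.9.0 and counted them with featureCounts. They deposited raw counts per gene and library, and ran their own tests with DESeq2. The strand setting and annotation release are not given in the sources used here. Gene IDs were matched to symbols with a reference list of gene names (48349 of 48795). Exon lengths, positions and exon overlaps came from GENCODE vM21.

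From these counts, genes with over 1.5 CPM in at least 2 libraries were kept (11228). The CPM level is that of the study's methods, and the number of libraries was set here. TMM factors and edgeR 4.0.16 (R 4.3.3) quasi-likelihood fits on all 12 libraries with 6 group means gave log2 fold changes, their SE and Benjamini-Hochberg adjusted p over all tested genes. A call needed a 2-fold change and an adjusted p at or under 0.05. The fit was tested on simulated counts. Printed levels are normalized CPM, and levels ranked between genes of a role group are per kb of exon. The levels of subunits against their partners are log2 CPM without scaling by length, so those positions also hold differences in exon length. Counting intervals cover counting error only. Alternatives were DESeq2 1.42.0, RLE and total count scaling, other filters and thresholds, a replicate block, a length correction, the compared groups alone and each library left out.

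The 45 members and all lists were chosen with earlier results of these data known. By rule, every library's value was given for members called in 1 genotype only with PM or OI and, in each role group, for the member highest per length and those with the largest and smallest fall with OI in WT. Genes outside the module were named only from the lists, from among the 6 of smallest p in each. Kif23, Cenpm, Spc24, Lin37, Lin52, Lin54, E2f1, Trp53, Rbl2, Cdkn1a and the complexes were added after their values were seen. Promoter windows came from RefSeq (GRCm38.p6).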

Additional observations from a re-analysis of the deposited data

How the results depend on the processing

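For the 44 members other than Pttg1, the fall with OI kept its direction under every alternative run, with 40 to 44 of 45 members called in WT and 41 to 44 in Acod1-/-, and 42 to 43 in each when single libraries were left out. Over the 4 comparisons of PM and OI, 2880 recomputed fold changes of single members gave 0 reversals of a called change, and the sign of an uncalled one turned for Pttg1 with OI (-0.11 without WT OI and PM replicate 2, 0.04 without Acod1-/- PM replicate 1) and, in both genotypes, for Spc24 with PM. The 2-fold limit set the counts with PM. Without it 38 members passed in WT and 37 in Acod1-/-, and 6 for Acod1-/- against WT with OI and PM. A test against that limit (glmTreat) gave 0 in all 3, and it ended the OI calls of Incenp in both genotypes, Spc25 in WT and Cenpa in Acod1-/-. Total count scaling gave 2 calls with PM in Acod1-/-, and medians of -0.66 with PM in WT, -3.48 with OI in WT, and -4.20 and -4.04 for OI and PM against control in WT and Acod1-/-, where the median of all genes was -0.20 and -0.15 under that scaling and 0.02 and -0.01 with TMM. The length correction, with or without the replicate block, gave 1 call with PM in WT, 0 in Acod1-/- and a WT median of -0.50. A filter of 10 counts gave a median of -3.87 for OI and PM against control in Acod1-/-, and fitting the compared groups alone gave 0 calls for Acod1-/- against WT with OI and PM. Leaving out single libraries moved the number of called members with PM in WT and for Acod1-/- against WT with OI and PM. The number of all genes called moved too, not always in the same direction, in fits with 1 library in a group. With PM in WT, Cenpe fell short of the 2-fold limit without control replicate 1 or PM replicate 2. Ect2 passed that limit without PM replicate 1 (-1.13). The medians of the members were -0.56 to -0.54 with PM in WT and -0.34 to -0.22 for Acod1-/- against WT with OI and PM. The medians were then -3.34 to -3.19 with OI in WT, -3.45 to -3.30 with OI in Acod1-/-, and -3.98 to -3.91 for OI and PM against control in Acod1-/-.

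The replicate numbers do not pair the libraries by any label. Same-numbered libraries deviated together in some comparisons (correlation 0.73 for OI in WT) and not in others (-0.09 for OI in Acod1-/-). With the replicate block the counts were 42 and 43 with OI and 2 and 1 with PM, as without it. With the numbers of the Acod1-/- PM libraries exchanged, chosen after seeing a correlation of -0.41 for the genotypes with PM, the counts were again 42, 43, 2 and 1.

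With 2 libraries a group, 7 members differed by over 0.5 (log2) between the WT replicates with OI and PM and 10 between those of Acod1-/-, against 0 in each other group. In those libraries 7 to 12 members were under 1 CPM.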
